A study of Mus musculus with 3 samples.

Results

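The 40 genes described here encode cadherins, protocadherins, the large cadherins of the Fat and Dachsous type, and catenins. They were taken as a fixed list of gene names, and a Twist1 peak was assigned to a member when its row in the deposited list gave that gene, on the lower or the higher coordinate side, with 50 Kb or less between them. Of 67468 peaks in the 3 lists, 263 were assigned to a member, and of 14620 genes named in the lists at any distance, 35 were members. The study examined Twist1 occupancy by ChIP-seq with an anti-Twist1 antibody in 3 mouse samples, all labelled FVB/N, with no treatment named. The ECC sample was atrioventricular canal endocardial cushion tissue at E12.5, and the limb bud sample was forelimb bud tissue at E10.5. The PNST sample was a cultured peripheral nerve sheath tumor cell line. Several litters or culture plates were pooled for each, so that every tissue had 1 sample and no replicate, PNST cells were 1 line, and no difference between tissues could be tested. In a pooled tissue, binding in fewer cells and weaker binding in each cell cannot be told apart.

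Classical cadherins are transmembrane proteins that hold neighboring cells together through calcium-dependent contacts. Their cytoplasmic tails bind beta-catenin and p120-catenin, and alpha-catenins link these complexes to actin. Protocadherins and the Fat and Dachsous proteins carry the same extracellular repeats and act in cell recognition, neural wiring and tissue polarity. Twist1 is a basic helix-loop-helix protein that recognises the E-box CANNTG and is known for lowering Cdh1 (E-cadherin) and raising Cdh2 (N-cadherin) during epithelial-mesenchymal transition.

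Of the 3 regions called in all 3 tissues, those of Cdh23 and Cdh18 are shown first, because such regions were called in every list. Sequences are the mm9 plus strand of a called peak, 5’ to 3’, and capitals mark E-boxes.
Cdh23, E12.5 ECC peak, chr10:59908552-59908646: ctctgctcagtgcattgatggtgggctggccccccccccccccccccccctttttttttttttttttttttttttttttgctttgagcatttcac
Cdh18, limb bud peak, chr15:22999949-23000188: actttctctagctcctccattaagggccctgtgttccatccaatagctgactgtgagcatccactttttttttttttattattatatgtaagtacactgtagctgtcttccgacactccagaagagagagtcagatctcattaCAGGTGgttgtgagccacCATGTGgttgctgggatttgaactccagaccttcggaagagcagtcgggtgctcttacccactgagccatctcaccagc
The Cdh23 peak, in intron 15, held a run of C followed by a run of 29 T. It had no E-box. The Cdh18 peak, in intron 1, held 2 E-boxes, and all of its 50-mers in the ECC and PNST peaks occurred elsewhere in mm9.

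The regions upstream of Cdh5 (VE-cadherin, the cadherin of endothelial junctions) are shown because this locus had 3 separate regions called in more than 1 tissue.
Cdh5, limb bud peak, chr8:106593768-106593968: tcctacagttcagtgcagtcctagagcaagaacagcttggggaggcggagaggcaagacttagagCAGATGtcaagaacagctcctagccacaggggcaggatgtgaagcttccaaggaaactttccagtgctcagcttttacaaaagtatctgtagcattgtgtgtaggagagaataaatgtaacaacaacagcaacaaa
Cdh5, PNST peak, chr8:106595634-106595747: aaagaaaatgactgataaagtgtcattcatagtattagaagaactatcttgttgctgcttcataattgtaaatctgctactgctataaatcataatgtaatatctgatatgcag
Cdh5, limb bud peak, chr8:106621628-106621871: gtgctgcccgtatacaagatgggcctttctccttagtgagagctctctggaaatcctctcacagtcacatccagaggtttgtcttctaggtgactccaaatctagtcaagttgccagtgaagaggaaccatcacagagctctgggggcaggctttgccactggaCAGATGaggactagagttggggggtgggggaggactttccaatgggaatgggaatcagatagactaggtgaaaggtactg
These peaks had no tandem repeat, and between 24.6% and 52.0% of the 50-mers occurred more than once in mm9. In the peaks of the other tissue at the same regions, whose sequences are not shown, this share was 34.0%, 65.2% and 79.2%. The first and the last printed peak each held 1 E-box, cagatg, and the PNST peak between them held none, while the longer limb bud peak over that PNST peak held 3. The ECC peak over the first also held 3, and the PNST peak over the last held 1.

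Other regions called in more than 1 tissue are shown for their sequence content.
Cdh13, limb bud peak, chr8:121371107-121371185: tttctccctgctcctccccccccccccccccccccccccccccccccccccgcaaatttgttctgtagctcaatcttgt
Cdh3, limb bud peak, chr8:108997572-108997692: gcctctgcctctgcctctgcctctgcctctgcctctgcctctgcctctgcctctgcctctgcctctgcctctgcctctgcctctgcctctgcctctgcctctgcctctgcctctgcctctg
Cdh12, PNST peak, chr15:21031585-21031834: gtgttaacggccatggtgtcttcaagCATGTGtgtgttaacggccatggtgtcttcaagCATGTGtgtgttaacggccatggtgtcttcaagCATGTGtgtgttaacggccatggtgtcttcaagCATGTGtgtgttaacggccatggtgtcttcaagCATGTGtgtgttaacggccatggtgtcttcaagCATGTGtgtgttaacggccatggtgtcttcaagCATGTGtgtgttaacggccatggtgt
Cdh20, limb bud peak, chr1:106636070-106636202: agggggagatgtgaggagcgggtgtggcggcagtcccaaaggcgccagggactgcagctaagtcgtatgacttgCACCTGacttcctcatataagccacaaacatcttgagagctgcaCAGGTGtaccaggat
Cdh6, limb bud peak, chr15:12985154-12985300: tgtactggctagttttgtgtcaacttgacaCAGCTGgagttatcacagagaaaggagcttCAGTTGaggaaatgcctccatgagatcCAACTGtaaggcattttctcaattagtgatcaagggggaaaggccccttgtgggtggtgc
Cdh1, limb bud peak, chr8:109202241-109202528: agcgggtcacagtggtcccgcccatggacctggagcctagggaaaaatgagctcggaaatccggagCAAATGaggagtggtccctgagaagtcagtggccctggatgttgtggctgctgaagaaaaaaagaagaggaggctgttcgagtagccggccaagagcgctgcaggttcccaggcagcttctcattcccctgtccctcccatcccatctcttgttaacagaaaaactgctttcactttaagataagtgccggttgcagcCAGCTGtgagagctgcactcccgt
The Cdh13 peak, in intron 4, held a run of 36 C within 79 bp, and the Cdh3 peak was 121 bp of tandem gcctct. The Cdh12 peak was made of copies of a unit of 33 bp, each with the E-box catgtg. The Cdh20, Cdh6 and Cdh1 peaks held 2, 3 and 2 E-boxes outside any tandem repeat, but 100% of their 50-mers occurred more than once in mm9. The ECC peaks over the Cdh20 and Cdh1 peaks held 2 E-boxes each. The ECC peak over the Cdh6 peak held none, and those peaks had 43 bp in common.

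Twist1 peaks were within 50 Kb of 22 of 40 members in ECCs, 35 in the limb buds and 17 in the PNST cells. As shares these were 55% (95% Wilson interval 39.8 to 69.3), 87.5% (73.9 to 94.5) and 42.5% (28.5 to 57.8), where intervals cover counting error only. Among 22232 protein-coding genes the shares were 22.5%, 54.0% and 14.6%. Among the 14620 genes named in the lists, each named beside at least 1 peak at any distance, they were 36.3%, 87.5% and 23.6%. For the 35 members so named, the shares were 62.9% (46.3 to 76.8), 100% (90.1 to 100) and 48.6% (33.0 to 64.4). Peaks in all 3 tissues were found for 15 members (37.5%, interval 24.2 to 53.0), compared to 6.56% of protein-coding genes. The 15 were Cdh1, Cdh5, Cdh12, Cdh13, Cdh18, Cdh20, Cdh23, Pcdh9, Pcdh15, Pcdh20, Fat3, Ctnna1, Ctnna2, Ctnna3 and Ctnnd2. Another 7 members had peaks in ECCs and limb buds (Cdh3, Cdh4, Cdh6, Cdh19, Pcdh8, Pcdh18 and Ctnnd1). That pattern was found for 13.0% of protein-coding genes and 21.0% of named genes. In limb buds and PNST cells there were 2 (Cdh10 and Pcdh17), against 5.9% of protein-coding and 9.56% of named genes. In limb buds alone there were 11 (Cdh2, Cdh7, Cdh8, Cdh9, Cdh17, Pcdh1, Pcdh7, Pcdh10, Pcdh19, Fat1 and Fat4), against 28.5% and 46.4%. No member had peaks solely in ECCs, solely in PNST cells, or in that pair alone. These patterns were found for 2.6%, 1.79% and 0.364% of protein-coding genes, and for 4.23%, 2.98% and 0.568% of named genes. Cdh15, Cdh16, Cdh22, Cdh24 and Dchs1 had no peak in any list, as 41.3% of protein-coding genes, and were not named at any distance.

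**Figure D1:**
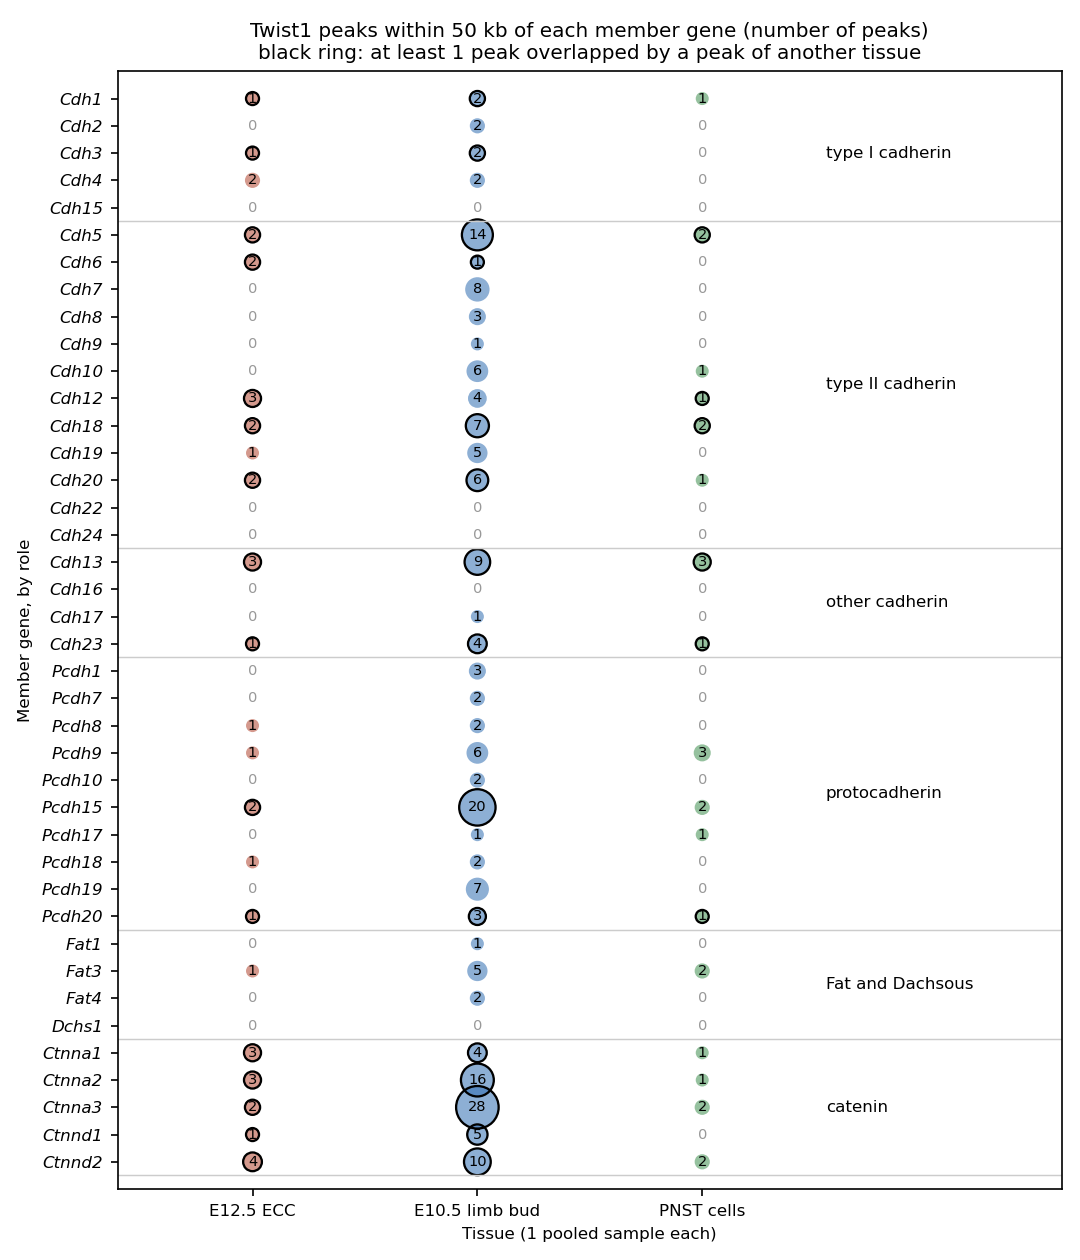
Number of Twist1 peaks within 50 kb of each of the 40 members (rows, grouped by role) in the 3 tissues (columns, 1 pooled sample each), with circle area following the number and a black ring where at least 1 peak was overlapped in another tissue. Limb buds have the most peaks at nearly every member, up to 28 at Ctnna3, while the highest number is 4 in ECCs and 3 in PNST cells.

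The lists differed in length and in depth. The header of the limb bud list gave 14893391 tags after duplicate filtering, against 3149934 for ECCs and 11823220 for PNST cells, and the list held 48965 peaks against 10965 and 7538. Peaks per 1000000 filtered tags numbered 3481 in ECCs, 3288 in the limb buds and 638 in the PNST cells, so that the PNST list was the shortest at a depth close to that of the limb buds. The deposited limb bud list was several times longer than the list the study describes, and every limb bud count here, the members with peaks in limb buds alone included, rests on the deposited one. When each list was reduced to its 7538 strongest peaks, members with a peak numbered 20 in ECCs, 18 in the limb buds and 17 in the PNST cells, and 12 members had a peak in all 3. A member absent from a list was therefore not called there, and absence of binding was not shown. The share of all genes with a peak was not computed for the reduced lists.

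Gene length also moved with these counts. Members spanned a median of 124.2 kb, against 15.2 kb for protein-coding genes. Across the 40 members the number of limb bud peaks and the span had a Spearman rho of 0.62, a description over genes that share 1 library, and the value was 0.42 over all protein-coding genes. Among the 23 members spanning 100 kb or more, 60.9% had a peak in ECCs, 95.7% in the limb buds and 56.5% in the PNST cells, compared to 51.1%, 90.3% and 38.4% of the 2367 protein-coding genes of that span. For peaks in all 3 tissues the shares were 52.2% (interval 33.0 to 70.8) and 25.4%. Among the 17 shorter members the shares were 47.1%, 76.5% and 23.5%, compared to 19.1%, 49.6% and 11.8% of shorter genes. The intervals of the long members included the share of long genes in each single tissue, but not the share in all 3. Spans were not matched within the long or the short group, and long members reached 1574 kb, so differences in length remain in these comparisons. For the short members, the share of short genes lay below the interval in ECCs (26.2 to 69.0) and limb buds (52.7 to 90.4), and inside it in PNST cells (9.56 to 47.3). Their share in all 3 tissues was 17.6% (6.19 to 41.0), against 4.31%. The intervals treat genes of the same libraries as independent, and the members were chosen with earlier results of these data known. A share inside or outside an interval is therefore no test of the family.

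**Figure D2:**
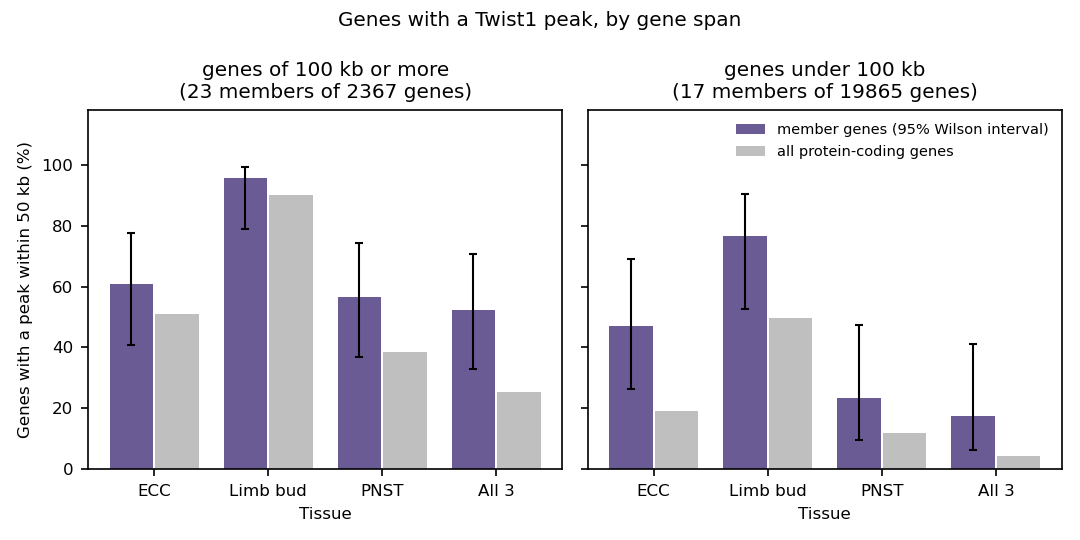
Percent of genes with a Twist1 peak within 50 kb, for members (purple, with 95% Wilson intervals) and all protein-coding genes (grey), at spans of 100 kb or more (left) and under 100 kb (right). Long members sit at 60.9%, 95.7% and 56.5% beside 51.1%, 90.3% and 38.4% for long genes, and the pair for all 3 tissues is 52.2% and 25.4%.

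The 40 ECC peaks at members were 0.665% of the 6012 ECC peaks within 50 Kb of a gene. The 196 limb bud peaks were 0.755% of 25975, and the 27 PNST peaks were 0.724% of 3728, with intervals that overlapped throughout. Tag counts were normalised to 1000000 filtered tags. The normalised tag count in member peaks was 93.3 in ECCs (95% Poisson interval 83.0 to 104.6), 154 in limb buds (147.9 to 160.5) and 19.5 in PNST cells (17.1 to 22.2). The order of these sums was that of the member peak counts, but the sums were not in proportion to the counts. The smallest call of a list had a normalised count of 1.59 for ECCs, 0.592 for PNST cells and 0.537 for limb buds. How far depth and this limit set the sums was not tested. The median fold enrichment of member peaks over the local background was 27.6 in ECCs, 15.7 in the limb buds and 15.2 in the PNST cells, and over all peaks near genes it was 27.6, 14.5 and 15.2. Most member peaks were small, with a median of 6 tags in ECCs, 9.5 in the limb buds and 8 in the PNST cells. At a p-value of 1e-10 or smaller, 5 member peaks remained in ECCs, 16 in the limb buds and 0 in the PNST cells, where 11.0%, 9.51% and 9.17% of all peaks near genes did.

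The 5 type I cadherins had 4 peaks in ECCs, 8 in the limb buds and 1 in the PNST cells. At Cdh1, the epithelial cadherin, the ECC peak held 15 tags and lay downstream of the gene, at a deposited distance of 9529 bp. The 2 limb bud peaks, of 27 and 22 tags, lay at 8781 and 9728 bp on that side, and the second overlapped the ECC peak. The PNST peak of 8 tags lay apart from these, in intron 2, 4.69 kb from the start site, with a fold enrichment of 21.2. That PNST peak held a run of 35 copies of a single base and no E-box, and 69.2% of its 50-mers were repeated. Cdh2, the cadherin of mesenchymal and neural cells, had no assigned peak in ECCs or PNST cells. Its 2 limb bud peaks were in introns 14 and 7 and held 8 tags each, the fewest of any limb bud peak. Cdh3 (P-cadherin) had the tandem gcctct region 37.2 kb upstream in ECCs and limb buds, with 6 and 13 tags, and a second limb bud peak of 17 tags. Cdh4 (R-cadherin) had 2 peaks in ECCs and 2 in limb buds, in introns 2 and 5, none of which overlapped.

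The 12 type II cadherins had 12, 55 and 7 peaks, and Cdh5 had the most. Cdh5 (chr8:106625525-106668402) had 14 limb bud peaks, 9 upstream and 5 downstream, and none inside the gene. The upstream limb bud peaks lay 3.17 to 31.7 kb from the start site and held 8 to 36 tags, with 36 in the nearest one. Its 2 ECC peaks held 9 tags each and lay 31.7 and 9.74 kb upstream, and its 2 PNST peaks held 7 and 8 tags and lay 29.9 and 3.79 kb upstream. The farther ECC peak was overlapped in limb buds, where the peak held 17 tags. Both PNST peaks were overlapped in limb buds, by peaks of 22 and 23 tags. No Cdh5 region was called in all 3 tissues, so the ECC and PNST peaks were at different positions upstream of the same gene. Of the 9 upstream limb bud peaks, 4 had fewer than 50% repeated 50-mers, whereas none of the 5 downstream peaks did.

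**Figure D3:**
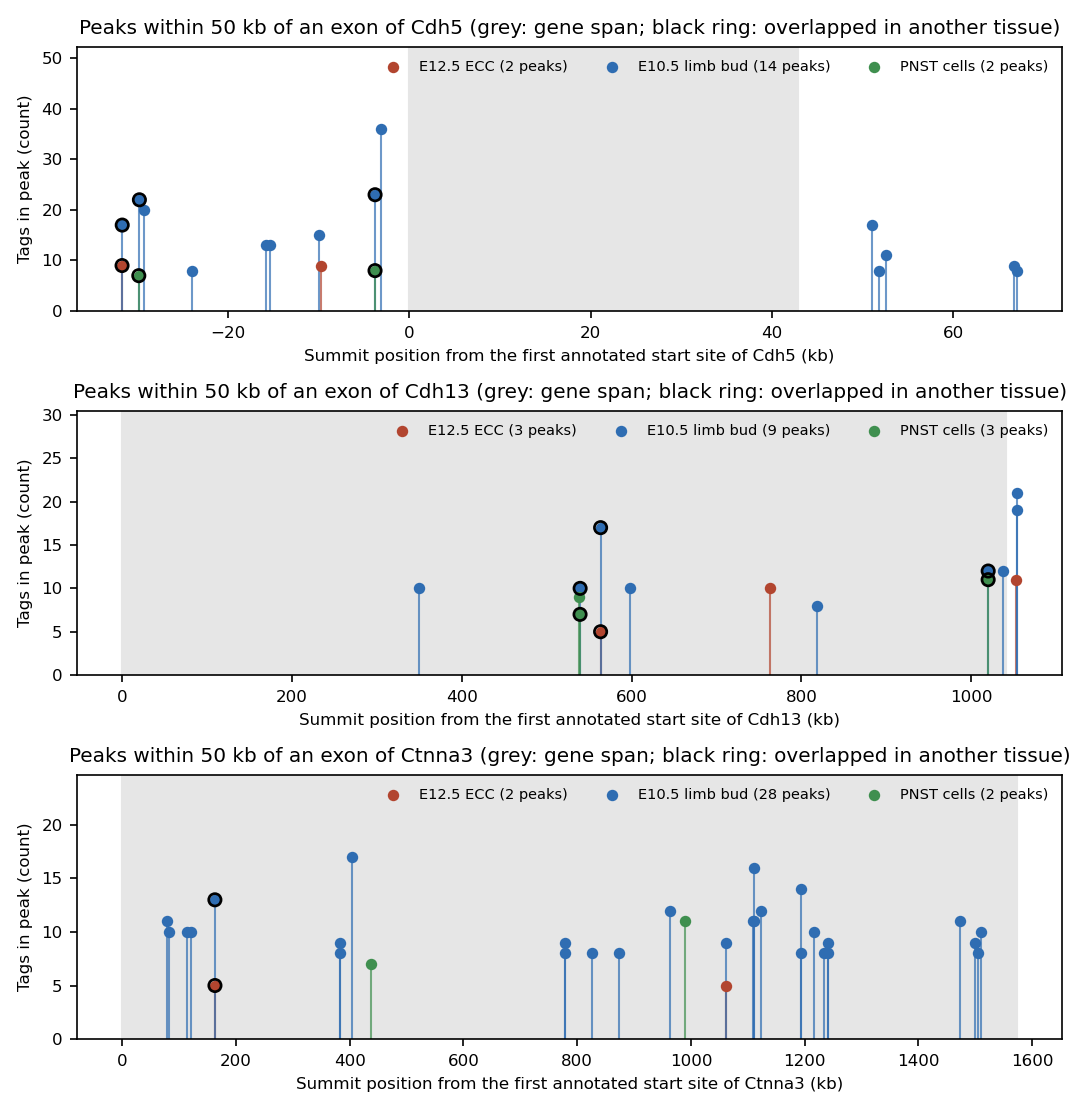
Position of each assigned peak summit relative to the first annotated start site (x axis, kb) and tags in the peak (y axis, count) at Cdh5, Cdh13 and Ctnna3, with the gene span in grey and black rings where a peak was overlapped in another tissue. Cdh5 peaks flank the gene, with 36 tags in the limb bud peak 3.17 kb upstream, while the 28 limb bud peaks of Ctnna3 lie inside it.

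Cdh18, a cadherin of the nervous system, had 2 ECC, 7 limb bud and 2 PNST peaks. Its intron 1 region, printed above, held 6 tags in ECCs, 25 in the limb buds and 8 in the PNST cells, with a fold enrichment of 56.0, 49.6 and 18.2. The limb bud value was the highest of the 196 member peaks there. Cdh12 had 3 ECC, 4 limb bud and 1 PNST peaks, and its 33 bp tandem 9.56 kb upstream held 18 tags in ECCs and 12 in PNST cells. It was the sole member region shared by those samples without limb buds. Cdh20 had 2, 6 and 1 peaks, and the region 29 kb upstream held 11 tags in ECCs and 9 in limb buds. Cdh6 (K-cadherin) had 2 ECC peaks and 1 limb bud peak, the latter of 10 tags overlapping an ECC peak of 5 tags in intron 5. Cdh7 had 8 peaks in limb buds and none elsewhere, among them the member peak with the most tags, 42, downstream of the gene at a deposited distance of 33080 bp. Cdh7 also had the sole member peak within 1 kb of an annotated start site, of 9 tags, in an exon of an alternative transcript. Cdh10 had 6 limb bud peaks and 1 PNST peak, Cdh19 had 1 ECC and 5 limb bud peaks, Cdh8 had 3 limb bud peaks and Cdh9 had 1.

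Among the other cadherins, Cdh13 (T-cadherin, which is anchored to the membrane by a lipid and lacks a cytoplasmic tail) had 3 ECC, 9 limb bud and 3 PNST peaks. It had 3 regions called in more than 1 tissue. In intron 4, the region with the run of C held 5 tags in ECCs and 17 in limb buds, and a second region held 10 tags in the limb buds and 7 in the PNST cells. That in intron 11 held 12 tags in limb buds and 11 in PNST cells. As at Cdh5, the ECC sample and the PNST sample each shared a region with limb buds but not with each other. Cdh23, a cadherin of the tip links of hair cells, had 1 ECC, 4 limb bud and 1 PNST peaks. Its intron 15 region held 7, 23 and 8 tags, with a fold enrichment of 39.7, 43.2 and 24.3, the last being the highest of any member peak in PNST cells. Cdh17, an intestinal cadherin, had 1 limb bud peak of 8 tags.

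All 10 protocadherins had a limb bud peak, 5 had an ECC peak and 4 a PNST peak. Pcdh15, which pairs with Cdh23 in tip links, had 20 limb bud peaks of 8 to 15 tags, 17 of them inside the gene, and 2 peaks in each of the other samples. An ECC peak of 5 tags in its intron 4 was overlapped by a limb bud peak of 12 tags. The other ECC peak of 5 tags lay in coding exon 37, had a fold enrichment of 37.4 and no repeated 50-mer, and was called in ECCs alone. It was the sole member peak in a coding exon of the transcript used. The Pcdh20 region called in all 3 tissues held 15 tags in ECCs, 20 in the limb buds and 8 in the PNST cells, and its fold enrichment of 79.4 in ECCs was the highest of all member peaks. Its peaks held a tandem repeat with a unit of 6 bp and no E-box. Of their 50-mers, 47.8% in ECCs, 70.2% in the limb buds and 67.7% in the PNST cells were repeated. Pcdh9 had 1 ECC, 6 limb bud and 3 PNST peaks, none of which overlapped. Pcdh8, a protocadherin of the presomitic mesoderm, had an ECC peak of 9 tags 26.9 kb upstream and limb bud peaks of 34 and 9 tags 28.2 and 45.1 kb upstream. Pcdh19 had 7 limb bud peaks and none elsewhere. Pcdh1, Pcdh7, Pcdh10, Pcdh17 and Pcdh18 each had 1 to 3 limb bud peaks, and in addition Pcdh17 had 1 PNST peak and Pcdh18 had 1 ECC peak.

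Of the large cadherins, Fat3 had 1 ECC, 5 limb bud and 2 PNST peaks without an overlap. Its ECC peak of 8 tags in intron 21 lay between limb bud peaks of 10 and 11 tags. Fat1 had 1 and Fat4 had 2 limb bud peaks, all outside the gene.

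All 5 catenins had peaks in ECCs and limb buds, with 13 and 63 peaks, and 4 had 6 peaks in PNST cells. Ctnna1, the widely expressed alpha-catenin, had 3 ECC, 4 limb bud and 1 PNST peaks. Its intron 10 region held 10 tags in ECCs and 18 in limb buds, with a fold enrichment of 69.0 and 47.0. A region just downstream held 6 and 10 tags, and the PNST peak of 7 tags lay 28.4 kb upstream. Ctnna3, the alpha-catenin of heart and testis, had 28 limb bud peaks, the most of any member, all of them in 10 of its introns and each of 8 to 17 tags. Ctnna3 was also the longest member, at 1574 kb. It had 2 ECC peaks of 5 tags each and 2 PNST peaks of 7 and 11 tags. The region in intron 5 held 5 tags in ECCs and 13 in limb buds. Ctnna2, the neuronal alpha-catenin, had 16 limb bud peaks of 8 to 19 tags, 3 ECC peaks and 1 PNST peak, and a region in intron 10 was called in ECCs and limb buds with 5 and 14 tags. Ctnnd2 (delta-catenin, a neuronal relative of p120-catenin) had the most ECC peaks, 4, with 10 in limb buds and 2 in PNST cells. Its shared region in intron 9 held 5 tags in ECCs and 9 in limb buds, and the peaks overlapped by 18 bp. Ctnnd1 (p120-catenin) had a region downstream of the gene with 7 tags in ECCs and 26 in limb buds, and 4 other limb bud peaks.

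Overlap with a peak of another tissue was found for 17 of 40 ECC peaks (42.5%, interval 28.5 to 57.8), 20 of 196 limb bud peaks (10.2%, 6.70 to 15.2) and 8 of 27 PNST peaks (29.6%, 15.9 to 48.5). Over all peaks within 50 Kb of a gene these shares were 33.9%, 9.2% and 20.4%, each inside the interval of the members. The overlapped peaks formed 21 regions at 16 members, and the share of all genes with such a region was not computed. Of the 21 regions, 13 were called in ECCs and limb buds, 3 in all 3 tissues, 4 in limb buds and PNST cells, and 1 in ECCs and PNST cells. The regions were in introns in 11 cases, upstream in 7 and downstream in 3. With 1 Kb allowed between peaks, 29 ECC member peaks had a neighbor in another tissue. That share over all ECC peaks near genes was not computed, so whether the count is particular to members is not known.

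In 16 of 16 regions shared by ECCs and limb buds, the ECC peak had the higher normalised tag count, and the counting intervals were apart at 3 (Cdh1, Cdh20 and Pcdh20). The smallest ECC peak called, of 5 tags, has a normalised count of 1.59, against 0.537 for 8 tags in limb buds. An ECC peak below 1.59 could therefore not enter the list. The limb bud value was below 1.59 in all of these regions except those of Cdh18 (1.68) and Ctnnd1 (1.75). Where it was below, any called ECC peak had to be the higher one, so the count of 16 shows no difference between tissues. At Pcdh20 the normalised tag counts were 4.76 in ECCs (2.67 to 7.85), 1.34 in limb buds (0.820 to 2.07) and 0.677 in PNST cells (0.292 to 1.33). At Cdh12 the ECC value of 5.71 (3.39 to 9.03) was above the PNST value of 1.01 (0.524 to 1.77). The intervals of limb buds and PNST cells overlapped in 7 of 7 regions.

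**Figure D4:**
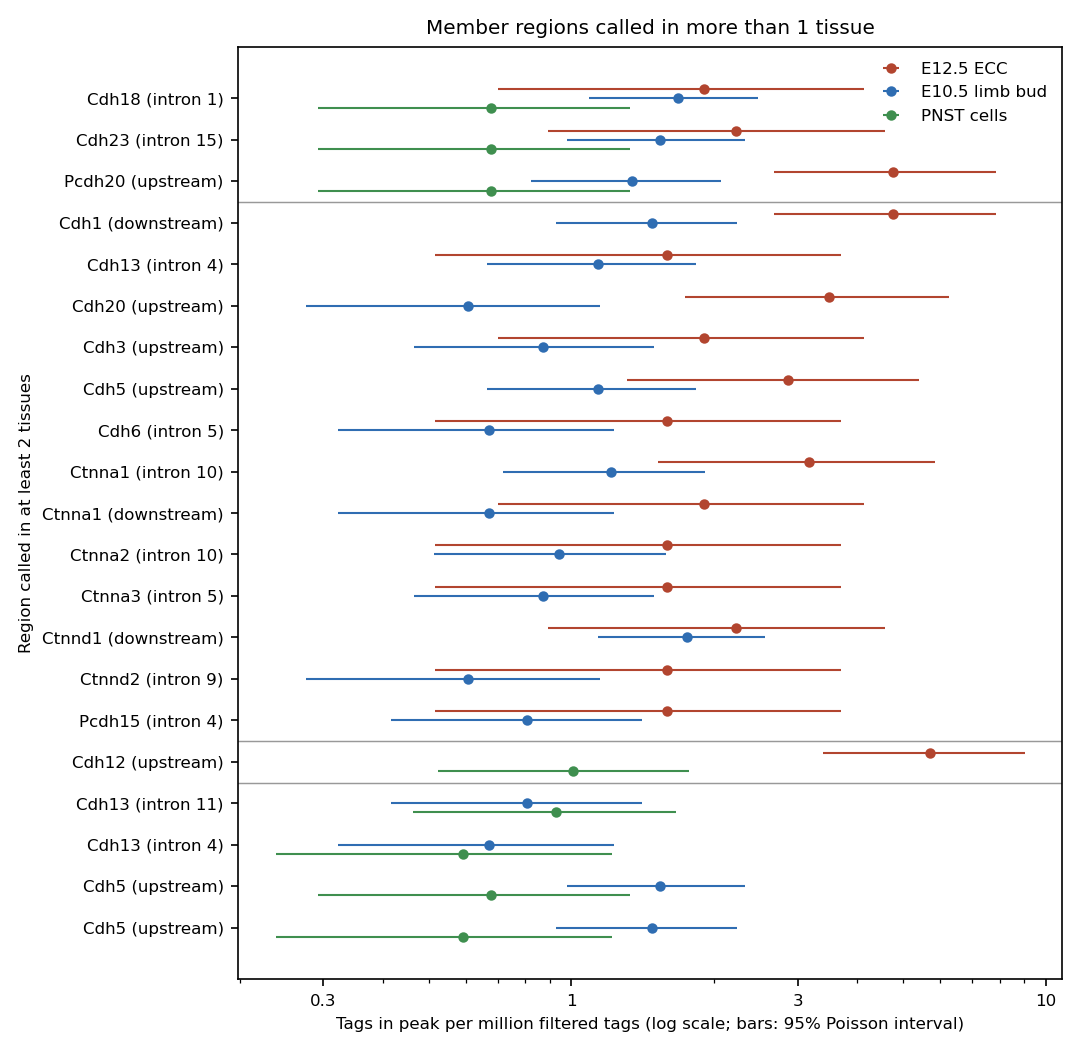
Normalised tag count of the peak (per 1000000 filtered tags, x axis, log scale, bars 95% Poisson intervals) at the 21 member regions called in at least 2 tissues (rows), grouped by the tissues that share them. ECC points lie to the right of limb bud points in 16 of 16 rows, and the intervals are apart at Cdh1, Cdh20 and Pcdh20. No ECC peak could be called below 1.59, a value that most limb bud points do not reach.

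The median fold enrichment of limb bud member peaks was 15.7 for those overlapped in another tissue and 15.6 for the others. In ECCs these medians were 30.2 and 27.6, and in PNST cells 18.2 and 15.2. The 5 limb bud member peaks with a fold enrichment of at least 30 (Cdh18, Pcdh20, Ctnna1, Cdh23 and Cdh13) were overlapped, as were 79.4% of all limb bud peaks near genes at that fold, and the next member peak had 29.8. In ECCs, 4 of the 6 member peaks with a fold of at least 40 were overlapped (55.5% of all), and in PNST cells 2 of the 5 with at least 20 (57.6% of all). These limits were set after the values were seen.

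Introns held 21 member peaks of ECCs, 112 of limb buds and 17 of PNST cells, counted in introns of the transcript with the most exons. Upstream of members there were 9, 42 and 5 peaks, and downstream 9, 40 and 5. The median distance from a summit to the nearest start site was 121 kb in ECCs, 101 kb in the limb buds and 139 kb in the PNST cells. The deposited distances ran to the nearest exon edge in 77.8% of cases and to a start site in 12.9%, so that the 50 Kb limit reaches far into long genes. With the summit required within 50 Kb of a start site, 13 members had a peak in ECCs, 31 in the limb buds and 7 in the PNST cells. With that limit 4 members had one in all 3 tissues, and the share over all genes was not computed. Conversely, 9 ECC, 50 limb bud and 11 PNST peaks lay inside members without being assigned by the rule, and are not counted above. Cdh18 alone had 4, 16 and 4 of these.

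An E-box was found in 52.5% of ECC (interval 37.5 to 67.1), 57.1% of limb bud (50.1 to 63.9) and 63.0% of PNST member peaks (44.2 to 78.5), compared to 53.0%, 55.6% and 51.8% of all placed peaks near genes. The 6 letters CANNTG read the same on both strands, and 11 of the 21 shared regions held one in at least 1 peak. A match describes the letters in the window and not a bound site.

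Most member peaks lay in repeated sequence. At least 50% of the 50-mers, the read length, occurred more than once in mm9 in 80.0% of ECC, 92.9% of limb bud and 92.6% of PNST member peaks, and in 85.1%, 92.5% and 87.1% of all placed peaks near genes. Across the whole spans of the members, 6.33% of 50-mers were repeated, from 0% to 12% per gene. A perfect tandem repeat was found in 25%, 9.69% and 18.5% of member peaks, against 23.6%, 15.8% and 17.1% of all. Of the 21 regions called in more than 1 tissue, 7 held one in a peak, and that share over all genes was not computed. The regions in intron 5 of Ctnna3 and downstream of Ctnna1 were among them, both without an E-box. Without any repeated 50-mer there were 3 ECC peaks (Cdh13, Cdh23 and Pcdh15), 2 limb bud peaks (Cdh13 and Cdh23) and 1 PNST peak (Cdh23), and of all placed peaks near genes 3.2%, 0.789% and 1.83% were such. The Cdh13 and Cdh23 peaks among these held the runs of a single base described above and no E-box. Only the Pcdh15 peak had no tandem repeat. With only peaks under 50% repeated 50-mers, 7 members kept a peak in ECCs, 9 in the limb buds and 2 in the PNST cells. Members that kept one in all 3 tissues numbered 2, Cdh5 and Cdh23, the latter at its runs of C and T. The share of all genes that kept a peak was not computed. The part of repeated sequence in the peak calls was not tested.

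**Figure D5:**
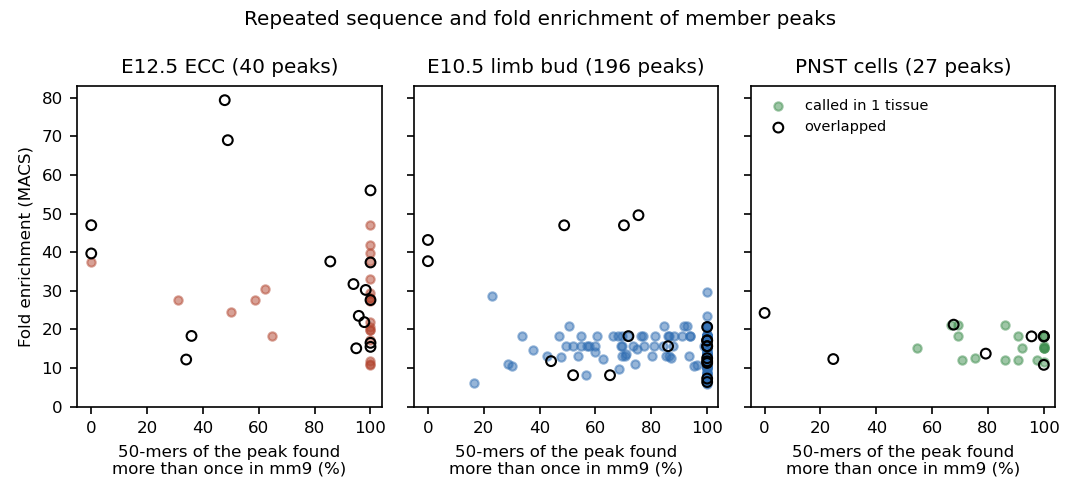
Share of the 50-mers of each member peak that occur more than once in mm9 (x axis, percent) against the fold enrichment given by MACS (y axis), with 1 point per peak and open circles for peaks overlapped in another tissue. Most points sit at or near 100%, and the 5 limb bud peaks above a fold of 30 are all open circles.

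A list of 46 other symbols, older ones included, held further cadherins and catenins together with desmosomal, calsyntenin and nectin genes and other junction-associated genes, and 27 of them were named in the lists. Of these, 9 had a peak in ECCs (33.3%, interval 18.6 to 52.2), 25 in the limb buds (92.6%, 76.6 to 97.9) and 9 in the PNST cells (33.3%, 18.6 to 52.2), with 12, 82 and 13 peaks. Over all named genes the shares were 36.3%, 87.5% and 23.6%, each inside the interval. Peaks in all 3 tissues were found at 4 (14.8%, 5.92 to 32.5, against 1538 of the 14620 named genes), Dsc3, Dsg1c, Dsg2 and Pcdh11x. An overlapped peak was found at 5, Dsc3, Pcdh11x, Pkp1, Ctnnal1 and Clstn1, and the share over all named genes was not computed. Cdh11, a cadherin of mesenchymal cells, had no peak in ECCs, 13 in the limb buds and 1 in the PNST cells, and none was overlapped. Ctnnb1 (beta-catenin) had no peak in ECCs, 1 in the limb buds and 1 in the PNST cells.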

How the data were processed

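Twist1 ChIP-seq peak lists from 3 pooled samples, 1 per tissue, were used as deposited. Per the labels and methods, the authors aligned 50 bp single-end reads to mm9 (Eland and Bowtie are named) and ran MACS 1.4.2 separately on each sample, keeping peaks up to a p-value of 1e-05. The deposited columns are tag counts after duplicate filtering, which are not normalized for depth, p-values as 10 times −log10, and fold enrichment, the ratio to the local background. The headers name no control file, whereas the methods name genomic DNA. The deposited limb bud list was several times longer than the list the study describes. Tissue labels could not be checked against marker expression.

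Peaks were assigned by gene name and deposited distance (at most 50 Kb). A peak was overlapped when at least 5% of its length was covered by a peak of another tissue. Tags were scaled to 1000000 filtered tags, with exact Poisson intervals, and shares carry 95% Wilson intervals. The smallest call held 5 to 8 tags. Start sites, introns (of the protein-coding transcript with the most exons) and spans came from GENCODE vM1 on mm9. E-boxes, 50-mers and perfect tandem repeats (units up to 40 bp, at least 3 copies and 15 bp, set after the sequences were seen) were counted in mm9 with pysam 0.24.0. The sequence of the Pcdh20 region is not reported here. No test was made, since no tissue had a replicate. Assignment and overlap code was checked on simulated peaks. Described in full were members with peaks in all 3 tissues or an overlapped peak, the 3 highest by peaks and by fold enrichment per tissue, and Cdh1, Cdh2 and Cdh5. Cdh4, Cdh7 to Cdh10, Cdh17, Cdh19, Pcdh1, Pcdh7, Pcdh8, Pcdh10, Pcdh17 to Pcdh19, Fat1, Fat4, Cdh11 and Ctnnb1 were given values after these were seen. The members and lists were chosen with earlier results of these data known.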

Additional observations from a re-analysis of the deposited data

How the results depend on the processing

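No paired analysis was possible because each tissue had 1 sample. Of 113 recomputed values, 53 stayed within 1.5 times the count or within the counting interval, and 60 did not. The cause was not tested beyond what each setting removes. With only peaks at a p-value of 1e-10 or smaller, members with a peak fell to 5 in ECCs, 11 in the limb buds and 0 in the PNST cells, with 5, 16 and 0 peaks and 0 members in all 3 tissues, and PNST shares, tags and medians could not be given. The overlapped share was then 80.0% in ECCs and 25% in limb buds, normalised tag counts 17.5 and 22.6, the median fold enrichment 47.0 and 19.8, and the E-box share in ECCs 20%. With a fold enrichment of at least 20, 14 members remained in limb buds and 5 in PNST cells, with 17 and 5 peaks, and 2 in all 3 tissues. Overlapped shares were 21.4% in ECCs and 35.3% in limb buds, and normalised tag counts 61.0, 16.1 and 3.81 in ECCs, limb buds and PNST cells. With a limit of 10 Kb, 13 members had a peak in ECCs and 9 in PNST cells, 7 had one in all 3 tissues, and peaks numbered 16, 62 and 9, with normalised tag counts of 41.3, 48.3 and 7.36. The share of limb bud summits inside a member was 79.0%, and the overlapped PNST share 55.6%. With only the nearer side, the limb bud normalised tag count was 144.5. With 7538 peaks per list, limb buds had 18 members and 30 peaks, and the overlapped share was 24.1% in ECCs and 23.3% in limb buds. With distances to a start site, members with a peak were 13 in ECCs and 7 in PNST cells, 4 in all 3 tissues, and peaks 15, 81 and 10. A reciprocal overlap of 50% gave overlapped shares of 27.5% in ECCs and 6.63% in limb buds, and a peak within 1 Kb gave 72.5% and 20.4%. Overlapped shares over all peaks near genes, and shares of all genes with a peak, were not computed at any of these settings. Within 50 bp of the summit, 42.9% of limb bud member peaks held an E-box. With only peaks under 50% repeated 50-mers, an alternative chosen after seeing the data, members numbered 7, 9 and 2, with 2 in all 3 tissues, peaks 8, 14 and 2, and overlapped shares 21.4% in limb buds and 50% in PNST cells.

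Depth limits every list: the smallest ECC peak held 5 tags, and no tissue has a replicate, so differences between tissues include those between single libraries.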
